A study of Mus musculus with 16 samples.

Results

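Of 5921 genes with values in the deposited table, 8 were described here, namely those whose symbol is Pln, Trdn, Casq1, Atp2b4, Nos1ap, Atp1b1, Gja1 or Gjc1. The 8 were chosen by function, but with earlier results of these data known. They act in calcium handling, in ion pumping and in gap junctions of heart muscle. All 8 had a mean of at least 1 TPM (a transcript level scaled for transcript length and library total) over the 16 libraries and so were among the 2620 genes tested. RNA was sequenced from ventricles of mouse embryos at E11.5, in 4 groups of 4 libraries. The design text has the ventricle dissected from each embryo, but the labels do not say that each library is a different embryo, so the p-values measure the spread between libraries. In the exon 2-3 cKO group, Xmlc2-Cre, which acts in cardiomyocytes, was directed at an Atf4 allele with floxed exons 2 and 3. Atf4 encodes a transcription factor of the stress response. The exon 2 cKO group carried the same Cre with exon 2 alone floxed. Each line had its own control group, and all libraries of a line share a batch label (1 for the exon 2-3 line, 2 for the exon 2 line). The genotype label reads C57BL/6 WT for all groups, knockouts included, and the labels do not say whether the controls carried Cre or the floxed allele. The ventricle also holds cells in which this Cre is not meant to act.

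A heartbeat is set off when calcium enters the cardiomyocyte and releases more calcium from the sarcoplasmic reticulum, the internal store. Calsequestrin (Casq1 is the isoform known from skeletal muscle) binds calcium inside the store, triadin (Trdn) ties calsequestrin to the release channel, and phospholamban (Pln) restrains the pump that refills the store. Atp2b4 is a calcium pump of the outer membrane, Atp1b1 is the beta subunit of the sodium pump, and Nos1ap is an adaptor of neuronal nitric oxide synthase known from studies of the QT interval. Gja1 and Gjc1 are connexins, the proteins of the channels through which the excitation passes from cell to cell. ATF4 binds, with a C/EBP partner, DNA elements that contain TGATGNAA.

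RefSeq promoter sequence on GRCm38.p6 was held for 6 of the 8 genes, in 7 windows, since Nos1ap has a pair of them. The 250 bases before the start site are shown for Casq1, the gene whose response differed between the lines, and for the internal start of Nos1ap, the window among the 7 that contained TGATGNAA. The Casq1 window is chr1:172219896-172220145 and the Nos1ap window is chr1:170557111-170557360, both on the minus strand and written 5′ to 3′. Capitals mark CANNTG (an E box) and GGGCGG (a GC box, here on the other strand) in Casq1, and TGATGNAA in Nos1ap.
Casq1: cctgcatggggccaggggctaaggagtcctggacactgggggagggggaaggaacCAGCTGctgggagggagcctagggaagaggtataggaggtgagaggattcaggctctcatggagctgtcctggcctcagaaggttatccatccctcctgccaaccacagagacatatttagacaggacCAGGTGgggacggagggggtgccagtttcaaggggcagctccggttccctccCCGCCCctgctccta
Nos1ap: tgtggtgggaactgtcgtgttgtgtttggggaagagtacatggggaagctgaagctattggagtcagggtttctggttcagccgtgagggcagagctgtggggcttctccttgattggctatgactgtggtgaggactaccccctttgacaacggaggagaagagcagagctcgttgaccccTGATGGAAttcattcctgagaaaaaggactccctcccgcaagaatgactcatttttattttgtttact
Both strands were searched for each motif. TGATGNAA was present in 3.45% of the 32851 windows of this length in the table, CANNTG in 66.2% and GGGCGG in 32.7%. In the Nos1ap window TGATGGAA began 68 bases before the start. In the Casq1 window the E boxes began 195 and 67 bases and the GC box 15 bases before the start, and TGATGNAA was not among its letters. A match is a description of the letters and no evidence of binding.

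The labelled tissue was checked against marker genes. Cardiac markers were abundant, with Tnnt2 (cardiac troponin T) averaging 4022 TPM and Myl7 (a myosin light chain) 3285 TPM over the 16 libraries. The 7 cardiomyocyte markers held summed to 11636 to 13140 TPM in the exon 2-3 controls and 10948 to 12125 TPM in the cKO, and to 8061 to 9680 TPM in the exon 2 controls and 8436 to 9732 TPM in the cKO. In the exon 2-3 line 1 of the 7 had a positive log2 difference, beside 1533 of the 2620 genes tested, and the median was -0.14. Hand1, a transcription factor of the ventricle, was called lower (log2 difference -0.60, limma adjusted p 0.0057), as were 67 of the 2620. The extraction text of the labels names cultured cortical neurons, but the 4 neuronal markers held summed to between 2.63 and 6.97 TPM. Epicardial and fibroblast markers (5 held) were higher in the exon 2-3 cKO, at 395 to 432 TPM, than in its controls, at 256 to 291 TPM, without overlap. Endothelial markers (4 held) ranged from 233 to 275 TPM in that cKO and from 197 to 258 TPM in its controls. Erythroid markers (4 held) ranged from 1512 to 11293 TPM in the exon 2-3 cKO and from 2995 to 4554 TPM in its controls, and from 2018 to 4707 TPM in the exon 2 line. In bulk tissue, fewer cells of a type and less RNA per cell cannot be told apart. Atf4 itself was not analysed here, so the deletion was not checked and the directions rest on the labels.

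**Figure D1:**
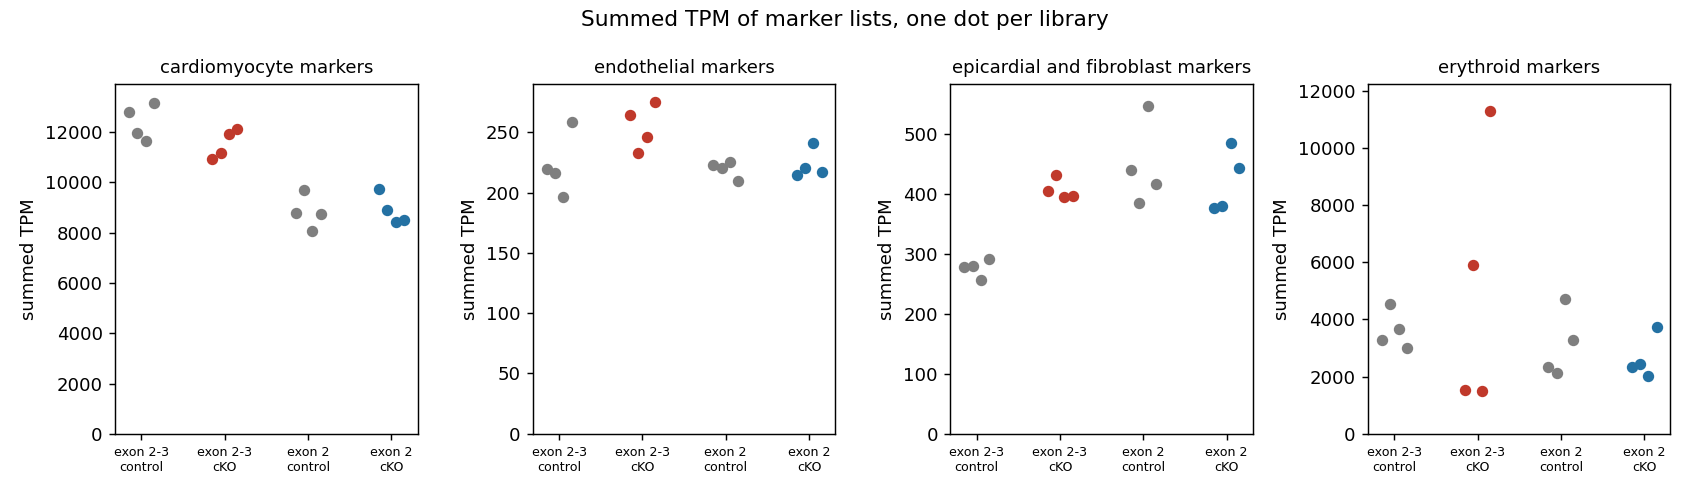
Summed TPM (y axis) of 4 marker lists in each of the 16 libraries, with 1 dot per library and the 4 groups along the x axis. Epicardial and fibroblast markers of the exon 2-3 cKO lie at 395 to 432 TPM, above its controls at 256 to 291 TPM, and 1 exon 2-3 cKO library reaches 11293 TPM of erythroid markers.

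The order of the 8 levels was nearly the same in all groups. Pln was the most abundant, with group means from 624 to 656 TPM, followed by Atp1b1 (348 to 488 TPM), Gja1 (271 to 298 TPM), Casq1 (199 to 279 TPM) and Trdn (93.6 to 116 TPM). Gjc1 (37.7 to 55.0 TPM) and Atp2b4 (39.4 to 61.8 TPM) overlapped in every group, so that their order was not resolved. Nos1ap was lowest, at 4.97 to 6.82 TPM. Atp1b1 and Gja1 also overlapped in the exon 2-3 controls. Casq1 and Gja1 overlapped in the exon 2 cKO, where Casq1 averaged 279 ± 21.0 TPM and Gja1 294 ± 13.9 TPM (SD, n = 4).

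**Figure D2:**
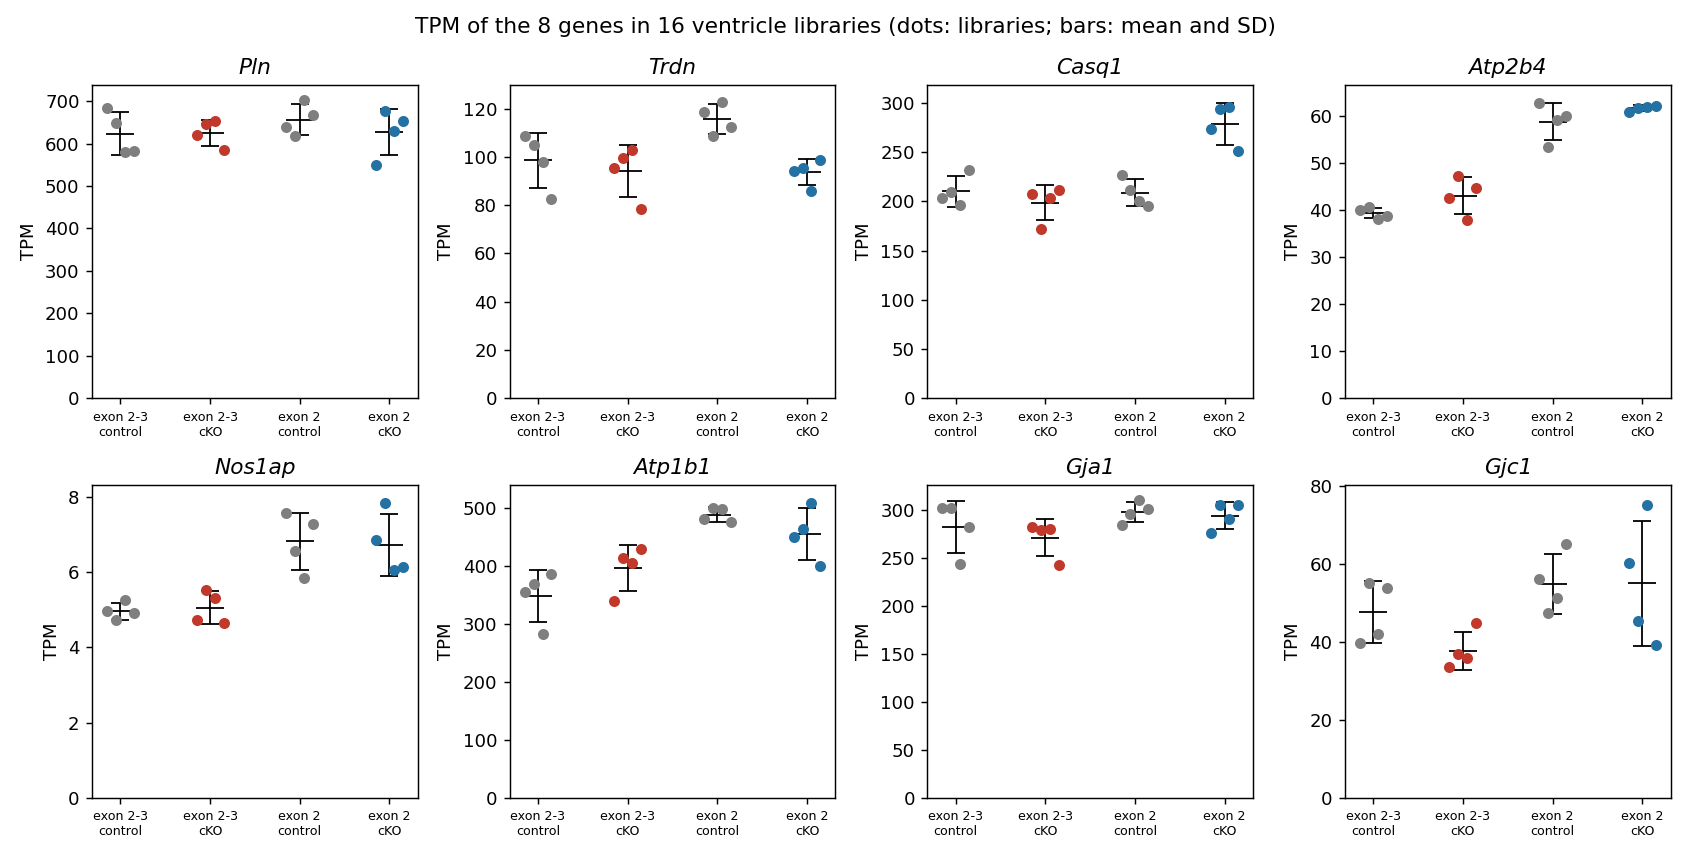
TPM (y axis, from 0) of the 8 genes in the 4 groups (x axis), with 1 dot per library and bars for the mean and SD of 4 libraries. Casq1 lies at 251 to 296 TPM in the exon 2 cKO, above all other libraries, and Trdn of the same group lies below its own controls.

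Among the reticulum genes, Casq1 (chromosome 1, 172209894 to 172219895, minus strand, GRCm38) was the gene whose knockout effect differed between the lines. In the exon 2 controls its levels were 227, 212, 201 and 196 TPM, and in the exon 2 cKO they were 274, 295, 296 and 251 TPM. All 4 exon 2 cKO libraries lay above all 4 controls. In the exon 2-3 line the controls had 203, 209.5, 196 and 232 TPM and the cKO 208, 172, 203 and 211 TPM, and these groups overlapped.

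The effect in the exon 2-3 line minus that in the exon 2 line was -0.50 for Casq1 on the log2(TPM + 1) scale (SE 0.11, 95% interval -0.72 to -0.27, limma adjusted p 0.0192). Allele, line and batch cannot be told apart in this difference. Casq1 was the 1 of the 8 genes to pass an adjusted p of 0.05 for this difference, where 2.37% of all genes tested did and 0.763% did in the same direction. Its log2 difference within the exon 2 line was 0.41 (SE 0.069, 95% interval 0.26 to 0.57), a mean level 33.5% above the controls. It missed the threshold over all genes there (limma adjusted p 0.0905), although it ranked at place 3 of 2620 by p-value. The corresponding difference in the exon 2-3 line was -0.083 (95% interval -0.25 to 0.087, limma adjusted p 0.582). The difference between the lines kept its call in 14 of 16 fits with 1 library left out and lost it narrowly without exon 2 control replicate 4 (adjusted p 0.0504) or exon 2 cKO replicate 2 (adjusted p 0.0509). Without a filter on low values the adjusted p was 0.0559. For the same difference between the lines, Hand1 among the cardiomyocyte markers was called at -0.52 (limma adjusted p 0.0481), and Tcf21 and Dcn among the 5 epicardial and fibroblast markers at 0.68 and 0.64. Between exon 2 cKO and controls, Hand1, Tcf21 and Dcn had log2 differences of -0.080, 0.016 and -0.018, none of them called. The exon 2-3 cKO gave -0.60, 0.70 and 0.62 for these markers, all called. They were picked by their call between the lines, so they do not stand for all markers. In the exon 2 line the median log2 difference was -0.062 over the 7 cardiomyocyte markers and -0.071 over the 5 epicardial and fibroblast markers. Summed epicardial and fibroblast markers of the exon 2 groups overlapped, at 385 to 548 TPM for controls and 377 to 485 TPM for cKO. The part of these cell types in the Casq1 values was not tested.

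Skeletal muscle, in which Casq1 is the usual calsequestrin, was looked for by its own markers. The 6 held summed to between 0.897 and 2.38 TPM per library. These sums in the exon 2 line were 1.74 to 2.09 TPM in controls and 1.54 to 2.38 TPM in the cKO. Myog, a regulator of skeletal muscle differentiation, averaged 0.191 TPM in the exon 2 controls and 0.184 TPM in the cKO. Casq1 overlaps the antisense row Gm17224, which averaged 2.70 and 2.54 TPM in these groups, and in GENCODE they share 156 of the 1951 exonic bases of Casq1. Whether counting used the strand is not given in the sources used here, so reads of the pair cannot be told apart.

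By the mean absolute difference of log2(TPM + 1) from the same line's control mean, over 16 libraries, the tested genes nearest to Casq1 were Drc3 (0.086), Mars1 (0.099) and Slc1a4 (0.10). The mean absolute deviation of Casq1 itself was 0.16. The log2 differences of these 3 genes in the exon 2 line were 0.29 for Drc3, 0.27 for Mars1 (methionyl-tRNA synthetase) and 0.33 for Slc1a4 (a neutral amino acid transporter). Their differences between the lines were -0.38, -0.47 and -0.44 in the same order. None of the 3 was called in the exon 2 line (limma adjusted p 0.999, 0.876 and 0.703) or between the lines (limma adjusted p 0.220, 0.0520 and 0.118). The directions of these differences follow from the choice of the genes by likeness to Casq1 over the same libraries and are given as a description.

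Trdn (chromosome 10, 33083483 to 33476709, plus strand) lay lower in the exon 2 cKO. Its levels were 119, 109, 123 and 113 TPM in the exon 2 controls and 94.3, 95.3, 85.9 and 98.8 TPM in the cKO. The groups did not overlap, and the mean differed by -19.1%. The log2 difference was -0.30 (SE 0.060, 95% interval -0.44 to -0.17), at place 5 of 2620 by p-value, but the limma adjusted p was 0.228, so it did not pass. Of the 8 genes, Casq1 and Trdn were the 2 without overlap in this line, against 1.83% of all genes tested (0.687% higher and 1.15% lower in the cKO).

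In the exon 2-3 line Trdn had 109, 105, 97.7 and 82.7 TPM in controls and 95.3, 99.5, 103 and 78.5 TPM in the cKO. Replicate 4 was lowest in both groups, and the log2 difference was -0.067 (95% interval -0.30 to 0.16). The difference between the lines was 0.24 (95% interval -0.029 to 0.50, limma adjusted p 0.410) and was not called for Trdn. Here too, allele, line and batch cannot be told apart. In GENCODE the 4 rows that overlap Trdn share 0 exonic bases with it.

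The ratio of Casq1 to Trdn within a library, formed after their values were seen and given with no test, ran from 1.64 to 1.95 in the exon 2 controls. It ran in the exon 2 cKO from 2.54 to 3.45. In the exon 2-3 line it ran from 1.87 to 2.80 in controls and from 1.73 to 2.69 in the cKO, and the groups overlapped.

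**Figure D3:**
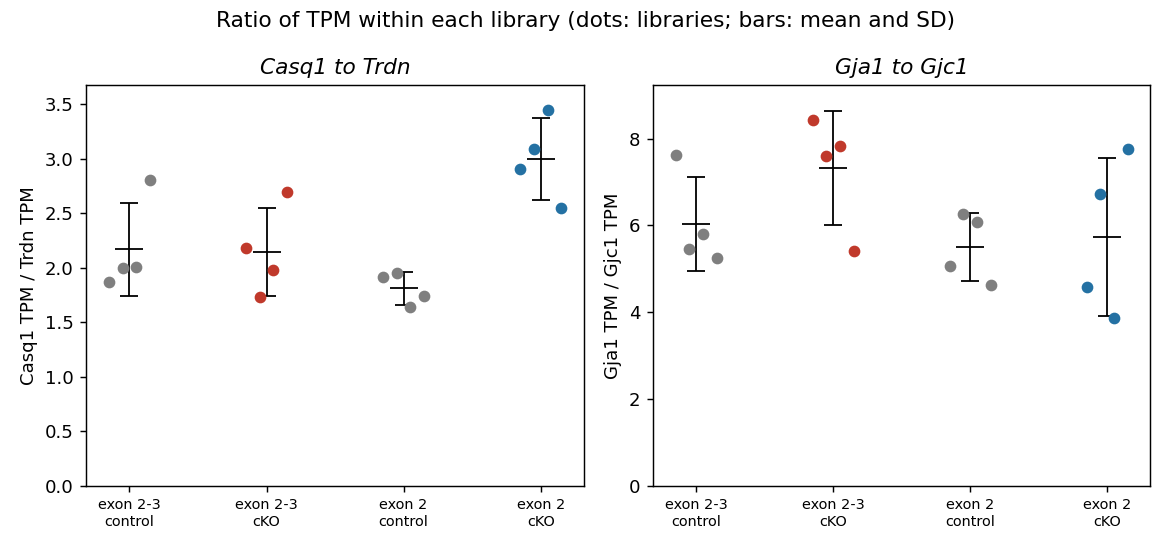
Ratio of TPM within each library (y axis, from 0) for Casq1 to Trdn and for Gja1 to Gjc1, by group (x axis), with 1 dot per library and bars for the mean and SD of 4. The Casq1 to Trdn ratio of the exon 2 cKO (2.54 to 3.45) lies above that of its controls (1.64 to 1.95), while the Gja1 to Gjc1 ratios overlap in both lines.

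Pln (chromosome 10, 53337686 to 53345999, plus strand) did not pass the test in either line. The exon 2-3 controls had 683, 648, 579.5 and 583 TPM and the cKO 619, 645, 654 and 585 TPM. The exon 2 controls had 639, 617, 702 and 667 TPM and the cKO 550.1, 677, 630.5 and 652 TPM. All groups overlapped, and the log2 differences were 0.0074 (95% interval -0.14 to 0.15) in the exon 2-3 line and -0.067 (95% interval -0.23 to 0.095) in the exon 2 line. Pln lies within the span of Cep85l on the other strand, which averaged 2.58 to 4.97 TPM per group.

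The outer membrane proteins did not pass the test in either line. Atp1b1 (chromosome 1, 164437099 to 164458355, minus strand) had 354, 368, 283 and 385 TPM in the exon 2-3 controls and 339, 413, 404 and 429 TPM in the cKO. The exon 2 line had 480.1, 499, 498 and 475 TPM in controls and 449, 463, 507 and 399 TPM in the cKO. Of the cKO libraries, 3 of 4 lay above all controls in the exon 2-3 line and 3 of 4 lay below all controls in the exon 2 line.

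The log2 difference of Atp1b1 was 0.19 (SE 0.10, limma adjusted p 0.330) in the exon 2-3 line and -0.11 (SE 0.071, limma adjusted p 0.999) in the exon 2 line. The difference between the lines was 0.30 (95% interval 0.017 to 0.58, unadjusted p 0.0390, limma adjusted p 0.292) and was not called. The rows of Atp1b1 and Nme7, on opposite strands, overlap by 202 bases in the coordinates of the table, while their GENCODE models share 18.7% of the exonic bases of Atp1b1. Nme7 averaged 27.2 and 30.9 TPM in the exon 2-3 control and cKO and 12.6 and 9.19 TPM in the exon 2 control and cKO, so its part in the values of Atp1b1 was not tested.

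Atp2b4 (chromosome 1, 133702674 to 133801059, minus strand) had 40.0, 40.6, 38.2 and 38.8 TPM in the exon 2-3 controls and 42.7, 47.2, 37.8 and 44.8 TPM in the cKO. The exon 2 controls had 62.8, 53.4, 59.3 and 60.1 TPM and the cKO 60.9, 61.9, 62.1 and 62.3 TPM. The exon 2 cKO libraries were the most uniform of the 4 groups (SD 0.621 TPM), and cKO and control overlapped in both lines. The log2 differences were 0.12 (95% interval -0.032 to 0.28) in the exon 2-3 line and 0.070 (95% interval -0.057 to 0.20) in the exon 2 line.

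Nos1ap (chromosome 1, 170315467 to 170589849, minus strand) ranged from 4.72 to 5.26 TPM in the exon 2-3 controls and from 4.66 to 5.54 TPM in the cKO. It ranged from 5.85 to 7.57 TPM in the exon 2 controls and from 6.06 to 7.85 TPM in the exon 2 cKO. The log2 differences were 0.021 (95% interval -0.17 to 0.21) and -0.017 (95% interval -0.25 to 0.22), and the groups of a line overlapped.

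Of the connexins, Gjc1 (chromosome 11, 102799477 to 102819686, minus strand) was lower on average in the exon 2-3 cKO. Its levels were 39.6, 55.2, 42.1 and 53.7 TPM in the controls and 33.5, 36.8, 35.8 and 44.8 TPM in the cKO. In the cKO 3 of 4 libraries lay below all controls, and replicate 4 lay among them. The mean differed by -20.9%, and the log2 difference was -0.32 (SE 0.12, 95% interval -0.60 to -0.048, unadjusted p 0.0259). It did not pass over all genes (limma adjusted p 0.162), and 21.1% of the genes tested had an unadjusted p under 0.05 in this line. With each library centred on its median the difference was -0.37 and passed (limma adjusted p 0.0459), as did 343 of the 2620 genes under that centring. It passed under no other alternative, with limma adjusted p from 0.0536 (replicate block) to 0.367 (no filter on low values). Of the 8 fits with 1 library left out, 0 called it (limma adjusted p 0.102 to 0.330).

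Gjc1 in the exon 2 line had 56.2, 47.3, 51.1 and 65.1 TPM in controls and 60.2, 45.3, 75.1 and 39.3 TPM in the cKO. The cKO libraries of that line spread on both sides of the controls. The log2 difference was -0.033 (SE 0.18), and the difference between the lines was -0.29 (95% interval -0.80 to 0.22, limma adjusted p 0.649). Between the groups of the exon 2-3 line, 4 of 5 epicardial and fibroblast markers were called higher in the cKO, beside 4.16% of all genes tested. Of the cardiomyocyte markers 1 of 7 (Hand1) was called lower, beside 67 of the 2620 genes tested. The part of these cell types in the Gjc1 values was not tested.

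Gja1 (chromosome 10, 56377300 to 56390419, plus strand) was the more abundant connexin. It had 302, 302, 244 and 282 TPM in the exon 2-3 controls and 282, 279.6, 281 and 242 TPM in the cKO. It had 285, 296, 310.4 and 301 TPM in the exon 2 controls and 276, 305, 290.3 and 305 TPM in the cKO. The groups overlapped in both lines, with log2 differences of -0.056 (95% interval -0.23 to 0.12) and -0.020 (95% interval -0.14 to 0.098).

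The ratio of Gja1 to Gjc1 within a library ran from 5.24 to 7.63 in the exon 2-3 controls and from 5.41 to 8.43 in the cKO. It ran in the exon 2 line from 4.62 to 6.26 in controls and from 3.86 to 7.77 in the cKO. Gja1 and Gjc1 overlap no other row of the table.

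**Figure D4:**
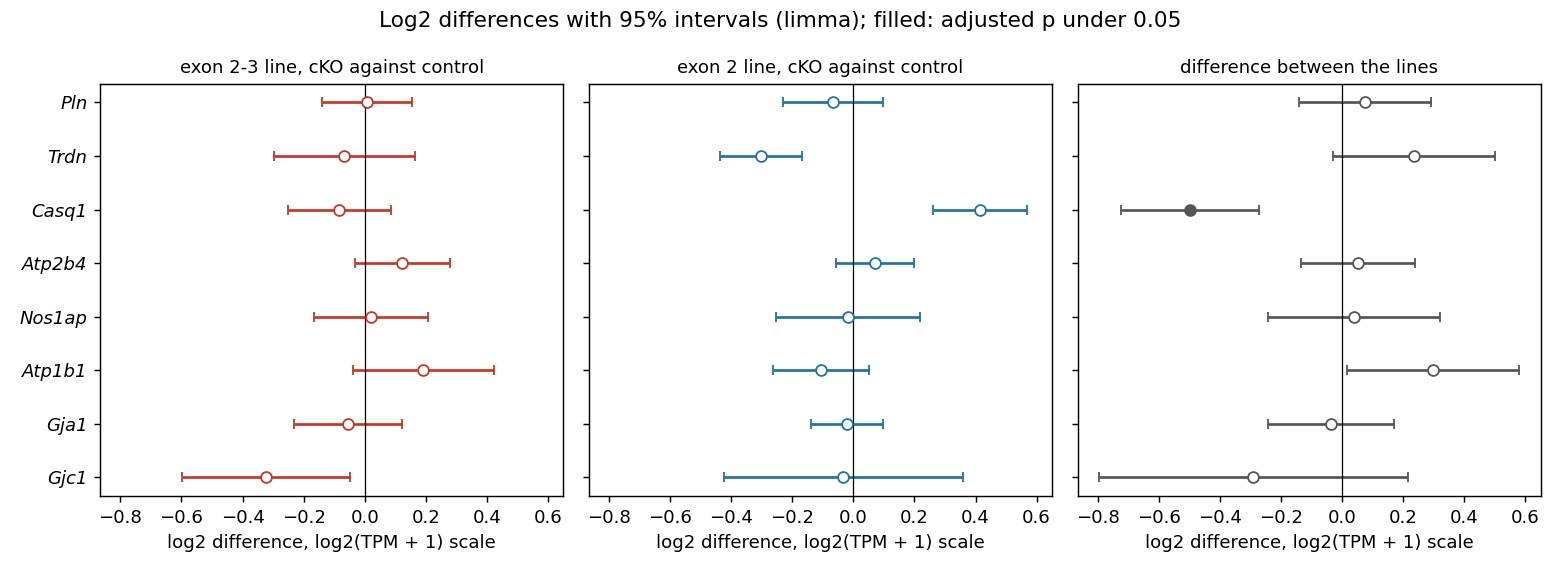
Log2 difference (x axis, log2(TPM + 1) scale) with its 95% interval for the 8 genes (y axis): exon 2-3 cKO against control, exon 2 cKO against control, and the first minus the second. The filled point, Casq1 at -0.50 in the difference between the lines, is the 1 with an adjusted p under 0.05.

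Across the 8 genes, 0 were called in the exon 2-3 line, where 6.72% of all genes tested were, and 0 were called in the exon 2 line, where 0.0763% were. No gene of the 8 was without overlap in the exon 2-3 line, beside 14.5% of all genes tested. At an unadjusted p under 0.05 the count was 1 of 8 (Gjc1) in the exon 2-3 line, where 21.1% of all genes tested met it. In the exon 2 line it was 2 of 8 (Casq1 and Trdn), where 3.21% of all genes met it. The median log2 difference of the 8 was -0.024 in the exon 2-3 line, beside 0.032 over all genes tested, and -0.027 in the exon 2 line, beside -0.012.

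The controls of the lines were compared for levels in the absence of a knockout, with line and batch confounded. Of the 8 genes, 4 were called lower in the exon 2-3 controls, and 0 were called higher. By direction alone, 1 of the 8 (Casq1) had a positive log2 difference. Of all genes tested, 52.6% were called, 38.1% lower and 14.4% higher. Some marker sums also did not overlap between these groups, at 11636 to 13140 against 8061 to 9680 TPM for cardiomyocytes and 256 to 291 against 385 to 548 TPM for epicardial cells and fibroblasts. Endothelial sums (197 to 258 against 210 to 225 TPM) and erythroid sums (2995 to 4554 against 2126 to 4707 TPM) overlapped. Of the cardiomyocyte markers 4 of 7 were called higher in the exon 2-3 controls. Des, Myocd and Hand1 were lower there and not called (log2 differences -0.082, -0.22 and -0.11). Of the 5 epicardial and fibroblast markers, 4 were called lower and 1 higher. The part of these cell types in the differences of the 8 genes was not tested. Atp2b4 averaged 39.4 ± 1.10 TPM there against 58.9 ± 3.98 TPM in the exon 2 controls (SD, n = 4 each), a log2 difference of -0.57 (SE 0.062, limma adjusted p 2.37e-06). Atp1b1 averaged 348 ± 45.1 against 488 ± 12.5 TPM (log2 difference -0.50, limma adjusted p 0.000408) and Nos1ap 4.97 ± 0.226 against 6.82 ± 0.771 TPM (log2 difference -0.39, limma adjusted p 0.00281).

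These 3 genes did not overlap between the control groups, all 3 lower in the exon 2-3 controls, and neither did 45.5% of all genes tested, with 32.6% of all genes in that direction. Trdn was the other called gene (log2 difference -0.23, limma adjusted p 0.0349). Its call was lost in 4 of the 8 fits that left out a control library, those without exon 2-3 control replicate 3 or 4 or exon 2 control replicate 1 or 3, with adjusted p-values up to 0.128. The median of all genes tested was -0.14 and moved by 0.18 after median centring, where Atp2b4 was at -0.38 and Atp1b1 at -0.32, both called, Nos1ap at -0.20 (adjusted p 0.122) and Trdn at -0.054 (adjusted p 0.697). Pln, Casq1, Gja1 and Gjc1 had log2 differences between -0.21 and 0.0085, and 0 of these 4 were called before any centring. After median centring Casq1 was higher in the exon 2-3 controls, by 0.19 (adjusted p 0.0297).

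Related genes were taken from 7 lists with 136 names, of which 29 were in the table and 16 were tested. In the exon 2-3 line, the exon 2 line and the difference between the lines 0 of the 16 were called. Their medians were 0.013 in the exon 2-3 line and -0.018 in the exon 2 line. Of the reticulum genes, Jph1 (junctophilin, which holds the reticulum near the outer membrane) had 5.44, 5.61, 6.63 and 6.09 TPM in the exon 2 controls and 4.67, 4.86, 5.23 and 4.22 TPM in the cKO. Jph1 was the 1 of 16 without overlap there, beside 1.15% of all genes tested that were lower without overlap, with a log2 difference of -0.27 (SE 0.096, limma adjusted p 0.999). Atp2a3, a reticulum calcium pump, averaged from 1.97 to 3.12 TPM per group.

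Atp2b1, the other outer membrane calcium pump held, averaged 29.7 ± 3.04 TPM in the exon 2-3 controls and 32.4 ± 1.45 TPM in the cKO (SD, n = 4 each). It averaged in the exon 2 line 39.3 ± 1.68 and 41.9 ± 3.91 TPM. Cacnb1, a calcium channel subunit, varied between 1.77 and 6.91 TPM over the 16 libraries. Mcu, the mitochondrial calcium uniporter, had log2 differences of 0.073 in the exon 2-3 line and -0.013 in the exon 2 line.

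Atp1b2, a beta subunit of the sodium pump, had log2 differences of -0.10 in the exon 2-3 line and -0.042 in the exon 2 line. Kcnmb1 and Kcnmb4, subunits of a calcium-gated potassium channel, were at -0.25 and 0.36 in the exon 2-3 line (limma adjusted p 0.237 and 0.315). Des (desmin) and Jup (plakoglobin), which anchor the intercalated disc, were at -0.10 and 0.093 in that line. Ppp3r1 (calcineurin B) was at -0.066, and Camk2b, a calmodulin kinase, at -0.23 (limma adjusted p 0.295), with 1.48 to 1.75 TPM in controls and 0.859 to 1.39 TPM in the cKO, which did not overlap, beside 5.31% of all genes tested that were lower without overlap. Kcnj12 and Cacna1g were named after their values were seen, as the related genes with an unadjusted p under 0.05 in the exon 2-3 line. Kcnj12, an inward rectifier potassium channel, had 1.61, 1.88, 1.39 and 2.19 TPM in the exon 2-3 controls and 0.662, 1.60, 0.115 and 1.43 TPM in the cKO (log2 difference -0.57, limma adjusted p 0.222). Cacna1g, a T-type calcium channel, went the other way, with 1.00, 1.01, 0.664 and 1.15 TPM in the controls and 1.10, 1.67, 1.33 and 1.78 TPM in the cKO (log2 difference 0.33, limma adjusted p 0.180), and the groups overlapped. Its difference between the lines was 0.43 (95% interval -0.0055 to 0.87, limma adjusted p 0.342).

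**Figure D5:**
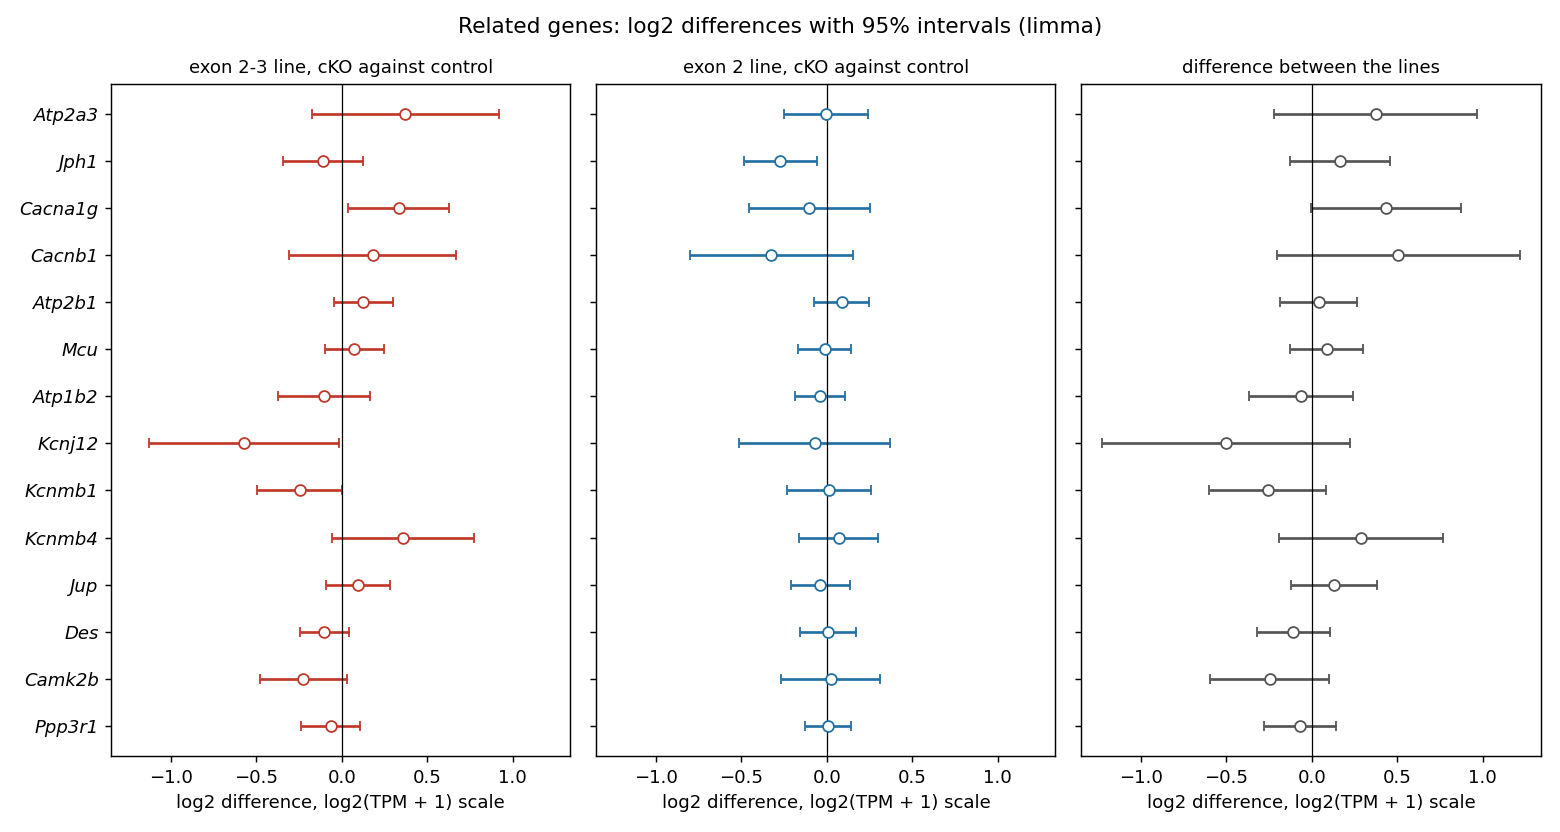
Log2 difference (x axis, log2(TPM + 1) scale) with its 95% interval for 14 of the related genes (y axis), in the exon 2-3 line, the exon 2 line and the first minus the second. All points are open, since 0 of these had an adjusted p under 0.05. Jph1 lies at -0.27 in the exon 2 line and Kcnj12 at -0.57 in the exon 2-3 line.

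Between the control groups 9 of these 16 genes were called lower in the exon 2-3 line and 0 were called higher, where 38.1% of all genes tested were called lower. By direction alone, 3 of the 16 had a positive log2 difference. Atp1b2 had the largest difference of the 16, with 15.7 to 21.9 TPM against 36.3 to 39.6 TPM (log2 difference -1.03, SE 0.10). Line and batch cannot be told apart here.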

How the data were processed

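The authors deposited 1 table of TPM values with 1 column per library, and all 16 columns were matched to a sample by the name in its description. The part held covers chromosomes 1, 10 and 11 (up to position 106501211), 15.2% to 17.1% of each library's TPM, and 1 incomplete line was left out. Other genes were not analysed here. Per the submitters' processing notes, Trim Galore 0.6.7, HISAT2 2.2.1, StringTie 2.2.1, featureCounts and the build GRCm38 were used. Which tool made the TPM, the annotation and the strand setting are not given in the sources used here. Coordinates of 5919 of the 5921 rows equal those of RefSeq on GRCm38.p6. TPM keeps no depth, so counting precision is unknown. The labels differ on library type (stranded mRNA or depletion of ribosomal RNA).

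Values were analysed as log2(TPM + 1), a scale that understates changes of low genes, for genes with a mean of at least 1 TPM over the 16 libraries. limma 3.58.1 (lmFit, eBayes with trend) in R 4.3.3 was fitted per line on 8 libraries, and on all 16 for the difference between lines (the interaction) and the controls. P-values were two-sided and adjusted over all 2620 tested genes by Benjamini-Hochberg and called under 0.05. The procedure was run on simulated data, with the same noise level for every gene and no shift of whole libraries. That run does not measure error rates on the real values. Related genes were named where called, otherwise at most the 2 most abundant per list, and 2 of the 16 tested are counted but not reported here by name. The 8 genes and all lists were chosen with earlier results of these data known. Within a group, libraries correlated with Pearson's r from 0.982 to 0.992 across genes. Within groups, at most 0.0763% of values were identical between 2 libraries. Alternatives covered pseudocount, filter, scaling, a joint fit, a replicate block and each library left out. Figures used Python 3.11.15, pandas 2.3.3 and matplotlib 3.10.9.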

Additional observations from a re-analysis of the deposited data

Results flagged for a closer look

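Casq1 was marked because its knockout effect differed between the lines by the interaction term (-0.50, limma adjusted p 0.0192, with all 4 exon 2 cKO libraries above their controls). Gja1 was marked because exon 2-3 cKO replicate 4, at 242 TPM, stood apart from the other 3 libraries of its group, which lay between 279.6 and 282 TPM. The same library had 11293 TPM of erythroid markers, the most of the 16, and its part in the Gja1 value was not tested. Such a gap is met by chance in about 1 of 20 groups, and 1 of the 32 groups checked here showed one.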

How the results depend on the processing

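Over the 8 genes and 4 comparisons, 214 of the values under alternatives with all libraries kept their direction and side of the threshold. Of the rest, 10 changed sign, 4 gained a call and 4 lost one. With 1 library left out 356 kept both, while 21 changed sign, 1 gained a call and 6 lost one. These include fits of the control comparison without a cKO library, in which the difference itself cannot change. Median centring gave 343 called genes in the exon 2-3 line (41.4% higher, against 61.9% of 176 as deposited), with 1 of the 8 genes called (Gjc1), 127 in the difference between lines (52.0% higher, against 67.7% of 62), and 57.7% higher in the controls (against 27.5%). It turned Pln (-0.041) and Nos1ap (-0.028) in the exon 2-3 line, Atp2b4 (-0.00010) and Nos1ap (-0.015) in the difference, and Pln (0.11) and Gja1 (0.099) in the controls. Quantile normalisation gave 311 (50.5% higher), 133 (53.4% higher) and 39.9% higher, called 1 of the 8 genes in the exon 2 line (Casq1, adjusted p 0.00845), and turned Nos1ap in the exon 2-3 line (-0.046) and in the difference (-0.029), Gja1 in the exon 2 line (0.011) and Casq1 in the controls (-0.068). Without a filter on low values 95 genes were called in the exon 2-3 line and 0 of the 8 in the difference, because Casq1 had an adjusted p of 0.0559. One fit over all libraries called 4 genes in the exon 2 line, 1 of the 8 among them (Casq1, adjusted p 0.0303). Where no reason is given here, the cause was not tested. With 1 library left out, called genes ranged from 70 (without exon 2-3 cKO replicate 3) to 190 in the exon 2-3 line, from 2 to 4 (without exon 2 control replicate 3) in the exon 2 line and from 36 (without exon 2 cKO replicate 2) to 84 in the difference. The called members ranged from 0 to 1 in the exon 2 line (Casq1 without cKO replicate 4, adjusted p 0.0374) and from 0 to 1 in the difference. Values that changed sign then ranged, in the exon 2-3 line, from -0.027 to 0.053 for Pln, from -0.016 to 0.053 for Nos1ap and from -0.15 to 0.017 for Trdn. In the exon 2 line they ranged from -0.084 to 0.029 for Nos1ap, from -0.20 to 0.11 for Gjc1 and from -0.042 to 0.010 for Gja1. In the difference they ranged from -0.10 to 0.017 for Gja1 and from -0.0076 to 0.11 for Nos1ap, and in the controls from -0.039 to 0.049 for Casq1.

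The labels do not say whether same-numbered libraries are paired. The correlation of their deviations lay between -0.029 and 0.21 in the exon 2-3 line and between 0.064 and 0.20 in the exon 2 line. Control replicates 1, 2 and 3 of the exon 2 line correlated best with the cKO library of their own number. In the exon 2-3 line only control replicate 4 did, so a pairing was neither shown nor excluded. With the replicate number as a block, 149, 2 and 68 genes were called in the exon 2-3 line, the exon 2 line and the difference, and the Casq1 term was -0.50 (adjusted p 0.0207).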

Other observations

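Ratios of paired pump genes within a library were also read, after their values were seen and with no test. The ratio of Atp1b1 to Atp1b2, both beta subunits of the sodium pump, was 19.5 ± 2.39 in the exon 2-3 controls and 24.0 ± 1.34 in the cKO (SD, n = 4 each), with ranges of 17.6 to 22.6 and 22.0 to 25.0. In the exon 2 line it was 13.1 ± 0.353 in controls and 12.5 ± 0.728 in the cKO. The ratio of Atp2b1 to Atp2b4, both calcium pumps of the outer membrane, was between 0.597 and 0.909 in all 16 libraries.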
